A study of Mus musculus with 37 samples.

Results

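The transcriptional response to a single X-ray dose of 6 Gy was examined in sorted Lgr5-EGFP+ progenitor cells of jejunal organoids that had received no VIP. The 8 samples were chosen by their labels from 37 in the series: the 4 libraries named as irradiated controls and the 4 libraries named as controls without irradiation (0 Gy), in pairs that shared a mouse number. Organoids had been grown from the proximal jejunum of Lgr5-EGFP-IRES-CreERT2 mice of both sexes, 6 to 12 weeks old, in Matrigel with EGF, Noggin and R-Spondin-1. Both groups carried the same reporter allele and received no vasoactive intestinal peptide (VIP), and by their labels the groups differed only in the X-rays. Live EGFP+ single cells were sorted 48 h after irradiation, so the data describe the cells that were alive and EGFP+ at that time. In this mouse strain EGFP is read from the Lgr5 locus and is known to be silenced in some crypts, so the sort samples a part of the Lgr5-expressing cells. The other 8 samples of the same experiment, treated with 100 nM VIP with or without irradiation, entered the statistical model and are used here only to ask whether the response differed under VIP.

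Lgr5 marks the dividing stem cells at the crypt base, which live between Paneth cells and give rise to absorptive enterocytes and to the secretory lineages, namely goblet, Paneth, enteroendocrine and tuft cells. Ionizing radiation breaks DNA and activates the transcription factor p53, whose targets arrest the cell cycle or start cell death. Surviving crypt epithelium is known to pass through a regenerative state with genes of the fetal gut before the normal lineages are restored. Organoids hold epithelium alone, so immune cells, mesenchyme and nerves are absent from the culture.

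Expression is given as UMIs (unique molecular identifiers, which count RNA molecules) per 1000000 UMIs of the library, abbreviated CPM, with library sizes scaled by TMM. Values of single samples are listed in the order of mice 1 to 4. Adjusted p-values come from edgeR's quasi-likelihood test over all 9976 genes tested with Benjamini-Hochberg adjustment, with the mouse as a block, and a gene was called at an adjusted p of at most 0.05. Each mouse gave 1 sample per condition. The p-values rest on the spread that remains among the 16 samples of 4 mice once group and mouse are accounted for.

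The libraries held 1525664 to 1798669 UMIs without irradiation and 1075715 to 1804839 after it, and the number of detected genes was 16595 to 17372 and 15883 to 17790. The difference in UMIs was not detectable with 4 pairs (exact sign-flip permutation test, two-sided, p = 0.5, where the smallest possible p is 0.13). The irradiated libraries of mice 3 and 4 stood apart, with 1075715 and 1122223 UMIs and the highest mitochondrial shares, 6.15% and 6.37% of UMIs, against 4.90% to 5.58% without irradiation. Correlations of log2 CPM between mice were 0.967 to 0.979 without irradiation and 0.964 to 0.974 after it, across genes, which are not independent replicates.

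The sorted cells were epithelial. Epcam, a surface protein of all gut epithelium, had 1197, 1179.7, 1178 and 1213 CPM without irradiation and 1095, 1089.6, 1057 and 974 CPM after it (log2 fold change -0.18 ± 0.06 (SE), adjusted p = 0.10). Defining markers of other tissues were near 0: over all 8 samples there were 9 UMIs of Ptprc, 2 of Cd3e, 4 of Itgam and 8 of C1qa for immune cells, and 1 of Col1a1, 0 of Col1a2, 2 of Col3a1, 1 of Pdgfra, 7 of Pecam1 and 2 of Acta2 for stroma, endothelium and muscle. The 20 immune genes in the table summed to 13.98 to 29.5 CPM without irradiation and 15.4 to 54.1 CPM after it, and the 24 stromal genes to 2.66 to 10.7 CPM and 7.45 to 10.99 CPM. Of the immune genes, 2 were tested and 1 was higher, Cd74, the invariant chain of MHC class II, which epithelial cells can also express, with 5.65, 6.26, 5.15 and 2.66 CPM and 26.6, 5.49, 31.9 and 27.9 CPM (log2 fold change 2.09 ± 0.44 (SE), adjusted p = 0.0047). None of the stromal genes had enough UMIs to be tested. The 6 erythroid and liver genes in the table were not near 0, with sums of 102 to 130 CPM without irradiation and 63.3 to 86.4 CPM after it. Of these only Ttr, a thyroid hormone carrier with a mean of 116.8 and 76.6 CPM, was tested, and it was lower (log2 fold change -0.60 ± 0.15 (SE), adjusted p = 0.017). Transcripts of mature secretory cells were present in the sorted samples even without irradiation, and whether they came from the Lgr5-EGFP+ cells themselves or from other epithelial cells in the sort was not tested. Cd74 did not pass without mouse 3 or 4, with an adjusted p of 1.4e-10 to 0.27 over the alternatives. Ttr did not pass without mouse 2 or 4, with an adjusted p of 1.3e-05 to 0.27 over the alternatives.

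Targets of p53 were used to check the irradiation label. Cdkn1a, the cyclin-dependent kinase inhibitor p21, had 354, 281, 275 and 254 CPM without irradiation and 588, 697, 638 and 647 CPM after it (log2 fold change 1.15 ± 0.10 (SE), adjusted p = 6.1e-08). Mdm2, the ligase that degrades p53, had 22.6, 24.4, 22.9 and 25.3 CPM and 42.0, 84.6, 40.6 and 65.2 CPM (log2 fold change 1.28 ± 0.16 (SE), adjusted p = 1.6e-05). For both genes the groups did not overlap. Of 79 tested members of the p53 target list, 33 were higher and 0 lower, where 2.87% of all genes tested were called higher and 1.59% called lower.

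Of the 9976 genes tested, 286 were higher and 159 lower, and 1668 had an unadjusted p under 0.05. These shares, 2.87% higher and 1.59% lower, are the background for every count of list members below. The groups did not overlap for 211 of the higher and 114 of the lower genes. Those genes were called from the same values, so the missing overlap is no separate support. The rises were the larger changes: 131 genes rose at least 2-fold, whereas 9 fell to a fold of at most 0.5. The p53 list held 33 of the higher genes, so 253 lay outside it. The counts depended on which mouse was left out. Without mouse 1 there were 409 higher and 234 lower genes, and without mouse 2 there were 181 and 71. Without mouse 3 there were 152 and 60, and without mouse 4 there were 134 and 42. Without the 2 irradiated libraries of fewest UMIs, a setting chosen after seeing the data, 125 genes were higher and 43 lower, and without the unirradiated library of mouse 1 alone 246 were lower. DESeq2 called 188 higher and 93 lower. The plot of the gene lists gives an overview of the programs described next.

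**Figure D1:**
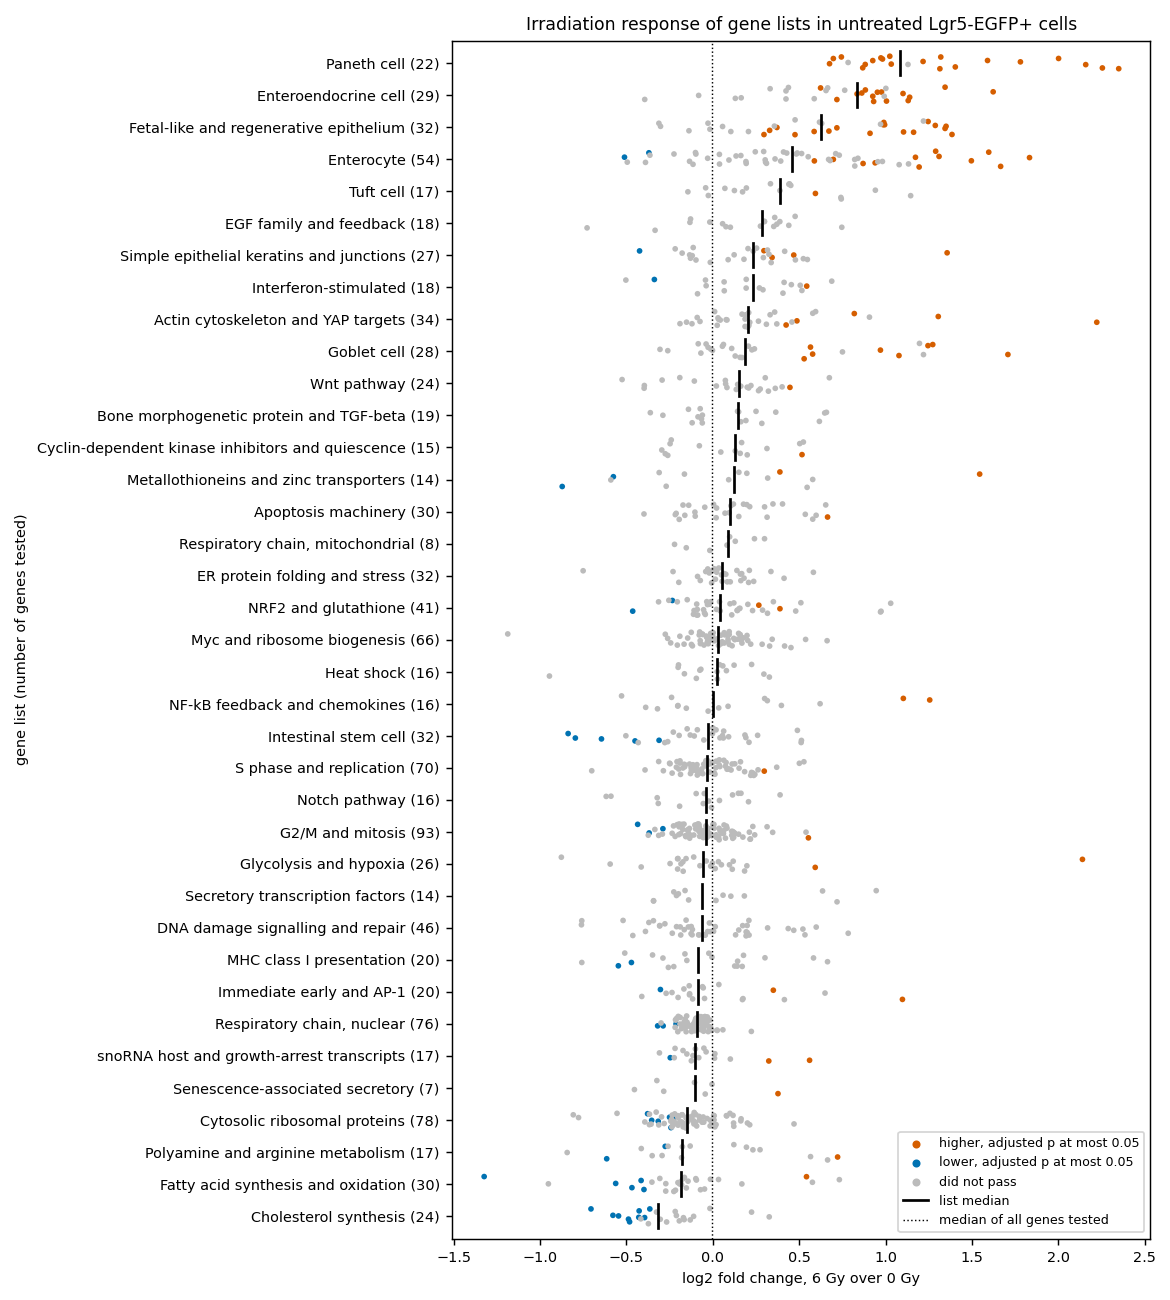
Log2 fold change of each tested member of 37 gene lists, 6 Gy over 0 Gy (horizontal axis), with lists ordered by their median (black tick) and the number of genes tested in parentheses; orange points passed as higher, blue points as lower and grey points did not pass, and the dotted line is the median of all genes tested. Paneth, enteroendocrine and fetal-like genes lie to the right, with medians of 1.08, 0.84 and 0.62, and cholesterol synthesis genes to the left, with a median of -0.31.

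Olfm4 and a few other stem cell genes fell. The stem cell marker Olfm4 (chr14:79984081-80023139 of GRCm38, plus strand), a secreted glycoprotein of crypt base cells, had 2468, 2941, 3070.5 and 3507 CPM without irradiation and 1663, 1911, 2071 and 1999 CPM after it. Every irradiated sample lay below every unirradiated one (log2 fold change -0.64 ± 0.07 (SE), adjusted p = 2.0e-06). Clca3b, a member of the calcium-activated chloride channel regulator family, had 485, 535, 605 and 568 CPM and 321, 320.4, 301 and 287 CPM, also without overlap (log2 fold change -0.84 ± 0.10 (SE), adjusted p = 1.0e-05). Smoc2, a matrix protein of the Lgr5 signature, had 286, 333, 329 and 365 CPM and 268, 287, 262 and 233 CPM, and the groups overlapped (log2 fold change -0.31 ± 0.08 (SE), adjusted p = 0.015). The vitamin D receptor gene Vdr (log2 fold change -0.80 ± 0.17 (SE), adjusted p = 0.0042) and the water channel gene Aqp4 (log2 fold change -0.45, adjusted p = 0.018; named after its values were seen) were lower as well. Smoc2 did not pass without mouse 3 or 4, in the 8 samples alone or with libraries thinned to the smallest total. Its adjusted p was 0.0043 to 0.43 over the alternatives. Vdr did not pass without the irradiated libraries of mice 3 and 4, with an adjusted p of 8.7e-05 to 0.051 over the alternatives.

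Lgr5 itself, the receptor for R-spondins (chr10:115450311-115587780, minus strand), had 28.2, 26.3, 12.6 and 15.3 CPM and 20.1, 25.8, 21.3 and 17.7 CPM, with higher values in 2 of 4 mice (log2 fold change 0.04 ± 0.21 (SE), adjusted p = 0.96). Cells were sorted by a reporter in this gene, and whether the gate affected its level was not tested. Ascl2, the stem cell transcription factor, did not pass, although the groups did not overlap (282, 252, 261 and 280.2 CPM and 225, 218, 232 and 210.5 CPM; log2 fold change -0.28 ± 0.10 (SE), adjusted p = 0.11). Axin2, a Wnt target, had 92.2, 78.2, 59.5 and 75.2 CPM and 73.4, 91.8, 66.7 and 76.4 CPM (log2 fold change 0.02 ± 0.13 (SE), adjusted p = 0.97). Of 32 tested stem cell genes, of 37 in the table, 0 were higher and 5 lower, and their median log2 fold change was -0.03 where that of all genes tested was -0.0041. Their summed level was 6697, 7088, 7296 and 7805 CPM without irradiation and 5531, 5925, 6064 and 5682 CPM after it, a drop carried largely by Olfm4. The count was 3 without mouse 3, 3 without mouse 4 and 2 without the 2 irradiated libraries of fewest UMIs. In bulk RNA fewer cells of a type and less RNA per cell cannot be told apart, here and for all programs below.

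**Figure D2:**
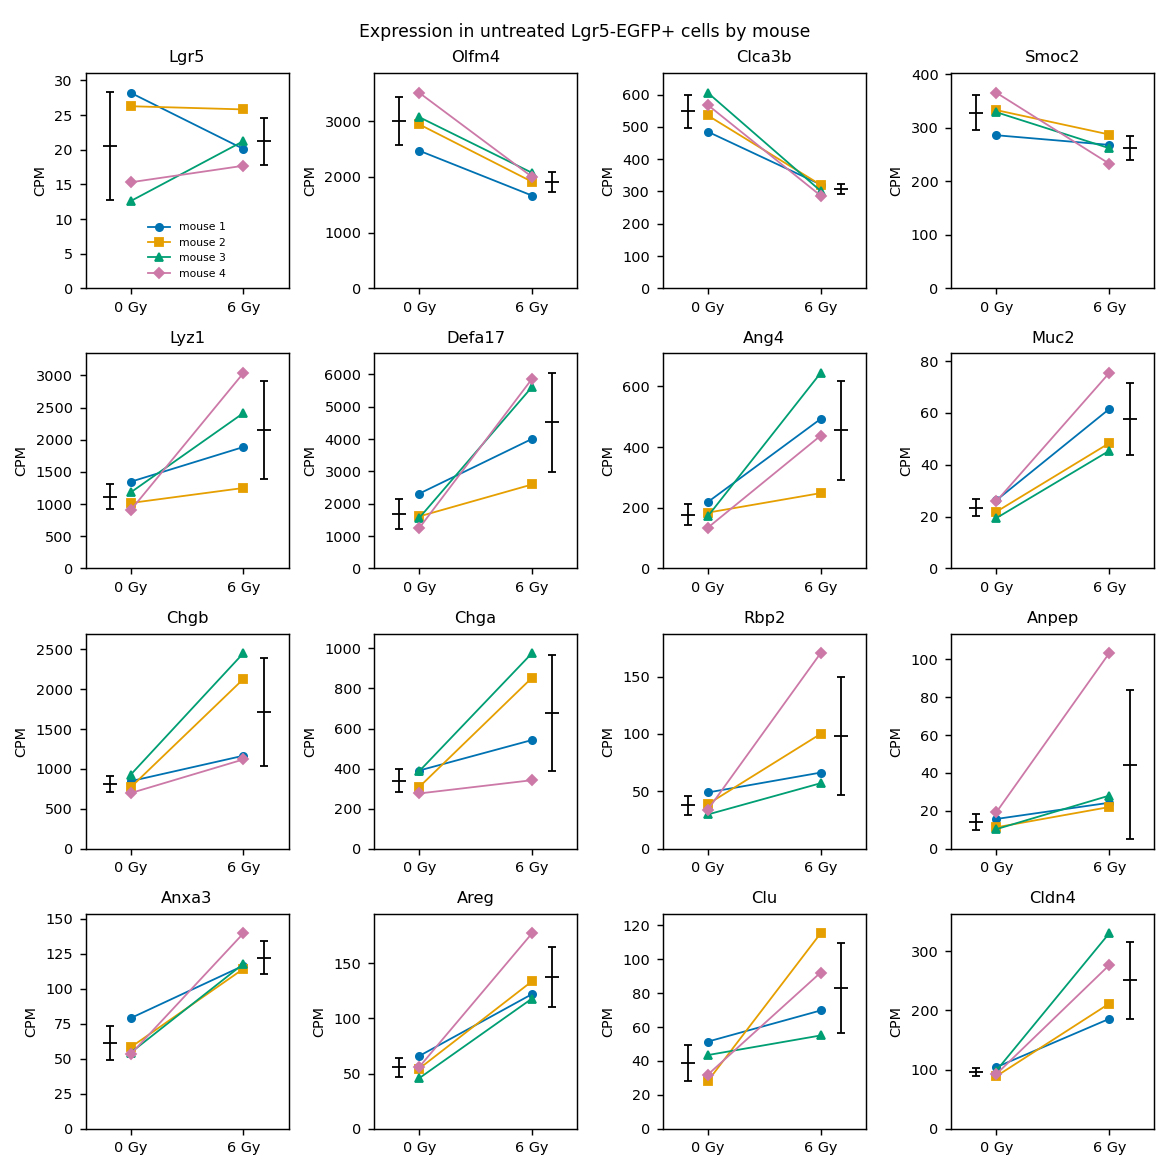
Level of 16 genes in untreated Lgr5-EGFP+ cells (vertical axes, CPM, each starting at 0) without irradiation (0 Gy) and after it (6 Gy); each line joins the 2 samples of 1 mouse, and black bars are the mean ± SD of 4 samples. Olfm4 and Clca3b fell in each of the 4 mice and Lgr5 in 2, whereas Defa17, Muc2, Anxa3, Areg and Cldn4 rose in each of the 4, and mouse 4 set the highest irradiated value of Rbp2 and Anpep.

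The Wnt and Notch lists together held 1 call, where 2.87% of all genes tested were called higher and 1.59% lower. Of 24 tested Wnt pathway genes 1 was higher, the cyclin gene Ccnd1, and 0 were lower (Frat2, described below, is not in the list), with a median of 0.15. Ccnd1 had 218, 187, 180.2 and 177 CPM and 229, 317, 246 and 252 CPM (log2 fold change 0.45 ± 0.11 (SE), adjusted p = 0.015). None of 16 tested Notch pathway genes was called by edgeR or DESeq2, and 0 had an unadjusted p under 0.05 (median -0.04). Hes1, the Notch target that holds back secretory fate, had a log2 fold change of -0.02 (adjusted p = 0.92), and Hes6 one of 0.04 (adjusted p = 0.90). None of 14 tested secretory transcription factors was called by either tool, with 5 at an unadjusted p under 0.05 (median -0.06). The most abundant were Xbp1, which drives the secretory apparatus (-0.23, adjusted p = 0.12), and Foxa3 (-0.16, adjusted p = 0.29). Of 19 tested genes of the bone morphogenetic protein and TGF-beta pathways 0 were called by either tool and 3 had an unadjusted p under 0.05 (median 0.14). Most abundant were Tgif1 (-0.07, adjusted p = 0.79) and Smad2 (-0.06, adjusted p = 0.88). Ccnd1 did not pass without mouse 2, 3 or 4, with an adjusted p of 3.4e-04 to 0.20 over the alternatives.

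Paneth cell genes had the highest median of the lists in the plot. Paneth cells sit beside the stem cells and secrete antimicrobial peptides, the alpha-defensins, and lysozyme. Defa17 (chr8:21655780-21656735, plus strand), an alpha-defensin, had 2313, 1608, 1562 and 1248 CPM without irradiation and 4006, 2596, 5613 and 5864 CPM after it. Its groups did not overlap, and mice 3 and 4 had the highest irradiated values (log2 fold change 1.404 ± 0.18 (SE), adjusted p = 2.3e-05). Defa3 (chr8:21287409-21288377, plus strand) had 64.0, 45.1, 65.2 and 36.6 CPM and 206, 79.1, 438 and 400.5 CPM, again without overlap (log2 fold change 2.26 ± 0.26 (SE), adjusted p = 9.8e-06). Ang4, an antimicrobial ribonuclease, had 219, 184, 172 and 134 CPM and 493, 248, 644 and 438 CPM (log2 fold change 1.32 ± 0.18 (SE), adjusted p = 2.9e-05). Lyz1, the lysozyme of Paneth cells and a marker of the list, had 1347, 1017, 1181 and 904 CPM and 1887, 1251, 2415 and 3038 CPM, where mouse 2 after irradiation lay below mouse 1 without it (log2 fold change 0.93 ± 0.16 (SE), adjusted p = 5.7e-04). Among the largest rises in 4 of 4 mice at a mean of at least 20 CPM were 4 defensin genes besides Defa17: Defa38, Defa3, Defa22 and Defa21, with log2 fold changes of 2.35, 2.26, 2.16 and 2.002. For Defa21 the groups overlapped and the adjusted p was 0.0033. Defensin genes are near-identical copies, so UMIs may have been split or exchanged between them. Defa21 did not pass without mouse 3, with an adjusted p of 1.2e-29 to 0.062 over the alternatives.

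Of 22 tested Paneth cell genes, of 30 in the table, 20 were higher and 0 lower, with a median log2 fold change of 1.08. The 2 tested genes that did not pass were Habp2 (0.78) and Reg3a (1.13). For 9 of the 20 the groups did not overlap, a smaller share than the 73.8% of all 286 higher genes. Summed over the list, the level was 16639.6, 13048, 12898 and 11262 CPM and 23193, 16562, 31748 and 32215 CPM, highest in the irradiated libraries of mice 3 and 4, which also had the fewest UMIs and the highest mitochondrial shares. With each library thinned to the smallest total, 20 members were still higher. The count was 12 without mouse 3 and 10 without the irradiated libraries of both mice, where the median was 0.79.

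Of the tested enteroendocrine genes 51.7% were called higher, beside 2.87% of all genes tested. These hormone-producing cells store peptides in granules with chromogranins. Chgb, chromogranin B (chr2:132781278-132795079, plus strand), had 846, 769, 927 and 697 CPM without irradiation and 1166, 2129.8, 2454 and 1119 CPM after it, with no overlap (log2 fold change 1.01 ± 0.12 (SE), adjusted p = 9.8e-06). Here mice 2 and 3 had the highest irradiated values, whereas for Defa17 these were mice 3 and 4. Cpe, the carboxypeptidase that trims prohormones, had 75.9, 62.6, 76.7 and 73.2 CPM and 139, 127, 186 and 185 CPM (log2 fold change 1.14 ± 0.15 (SE), adjusted p = 2.2e-05). Chga, chromogranin A, had 390.1, 308, 387 and 276 CPM and 543, 854, 977 and 342 CPM, and the irradiated value of mouse 4 lay within the unirradiated range (log2 fold change 0.93 ± 0.14 (SE), adjusted p = 1.0e-04). Of 29 tested members, of 32 in the table, 15 were higher and 0 lower (median 0.84), and for 6 of the 15 the groups did not overlap, again a smaller share than among all higher genes.

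The higher enteroendocrine members included the hormone genes Nts for neurotensin (1.62), Pyy for peptide YY (0.88), Sct for secretin (0.72) and Tac1 for tachykinins (0.62), and Tph1, the enzyme of serotonin synthesis (0.95), all in log2. Gcg, the proglucagon gene, and Cck, the cholecystokinin gene, had log2 fold changes of 0.67 and 0.42 and did not pass (adjusted p = 0.078 and 0.21). Nts and Pyy were named after their values were seen. The summed level of the list was 4874, 4052, 4565 and 3721 CPM and 7241, 6421, 9597 and 7011 CPM. The count was 7 without mouse 3, 9 without mouse 4, 6 without the 2 irradiated libraries of fewest UMIs and 8 in DESeq2.

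Goblet cell genes rose for a part of the list. Muc2, the gel-forming mucin, had 26.3, 21.9, 19.5 and 26.0 CPM without irradiation and 61.5, 48.4, 45.4 and 75.4 CPM after it, with no overlap (log2 fold change 1.27 ± 0.19 (SE), adjusted p = 1.1e-04). Ccl6, a chemokine of the list, had 51.4, 41.9, 49.8 and 30.6 CPM and 125, 51.7, 108 and 143 CPM (log2 fold change 1.25 ± 0.22 (SE), adjusted p = 9.0e-04). Zg16, a lectin of the mucus, had 65.2, 50.7, 60.1 and 41.9 CPM and 428, 151, 54.1 and 137 CPM, and fell in mouse 3 while it rose in the other 3 mice (log2 fold change 1.71 ± 0.31 (SE), adjusted p = 0.0012). Of 28 tested members, of 34 in the table, 8 were higher (28.6%, beside 2.87% of all genes tested) and 0 lower. The other 20 did not pass, and 8 of the 28 had a log2 fold change below 0 (median 0.19). For 3 of the 8 higher members the groups did not overlap, a smaller share than the 73.8% of all higher genes. The summed level was 9774, 7257, 7484 and 6489 CPM and 11826, 8424, 11651 and 11936 CPM. The count was 5 without mouse 3, 3 without mouse 4 and 3 without the 2 irradiated libraries of fewest UMIs. Of 17 tested tuft cell genes 1 was higher and 0 lower (median 0.39). That gene was Fyb, an adaptor protein of immune signalling that tuft cells also express (log2 fold change 0.59 ± 0.16 (SE), adjusted p = 0.032). Dclk1, the usual tuft cell marker, had 18.2, 11.9, 22.9 and 10.6 CPM and 24.3, 35.7, 29.0 and 16.8 CPM (log2 fold change 0.74 ± 0.26 (SE), adjusted p = 0.12). Ccl6 did not pass without the irradiated libraries of mice 3 and 4, with an adjusted p of 1.1e-16 to 0.065 over the alternatives. Fyb did not pass without mouse 2, 3 or 4 or in DESeq2, with an adjusted p of 0.028 to 0.27 over the alternatives.

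**Figure D3:**
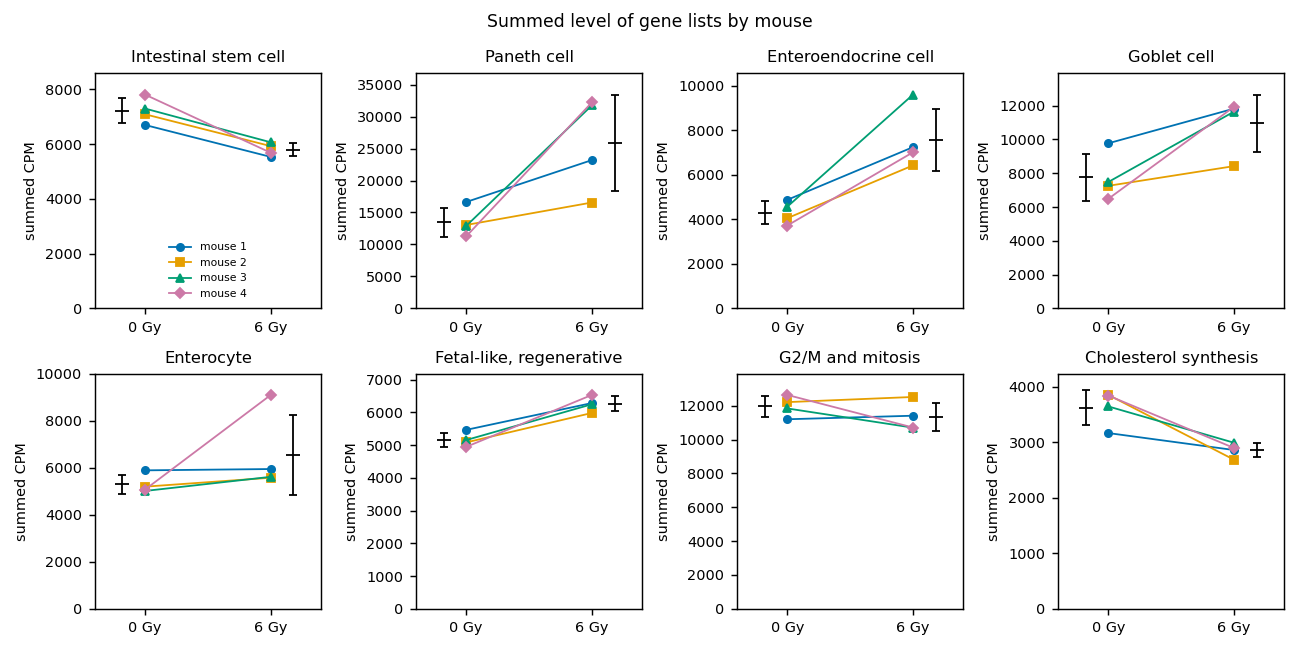
Summed level of 8 gene lists (vertical axes, CPM, each starting at 0) without irradiation and after it; each line joins the 2 samples of 1 mouse, and black bars are the mean ± SD of 4 samples. The stem cell and cholesterol sums fell in each of the 4 mice, the Paneth, enteroendocrine, goblet and fetal-like sums rose in each of the 4, and the irradiated enterocyte sum of mouse 4, 9105 CPM, stood apart from those of the other 3 mice, 5579.5 to 5949.6 CPM.

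Enterocyte genes were mixed and leaned on 1 mouse. Rbp2, a retinol-binding protein of absorptive cells, had 48.9, 38.8, 29.8 and 33.9 CPM without irradiation and 66.3, 100.01, 57.0 and 170.4 CPM after it, with no overlap and the highest value in mouse 4 (log2 fold change 1.31 ± 0.23 (SE), adjusted p = 8.8e-04). Ces2e, a carboxylesterase, had 198, 169.6, 195 and 168 CPM and 262, 297, 277 and 352 CPM (log2 fold change 0.70 ± 0.09 (SE), adjusted p = 2.3e-05). Cyp3a11, a drug-metabolizing cytochrome P450, had 16.3, 15.6, 10.9 and 15.97 CPM and 34.3, 41.8, 19.3 and 95.9 CPM (log2 fold change 1.598 ± 0.29 (SE), adjusted p = 0.0010). Anpep, aminopeptidase N of the brush border, had 15.7, 11.3, 10.3 and 19.3 CPM and 24.3, 21.98, 28.0 and 103 CPM (log2 fold change 1.497 ± 0.30 (SE), adjusted p = 0.0030). Of 54 tested members, of 69 in the table, 12 were higher and 2 lower, with a median of 0.46. The lower ones were Hnf4g, a transcription factor of enterocyte identity (log2 fold change -0.51 ± 0.13 (SE), adjusted p = 0.017), and Prap1, a secreted protein (log2 fold change -0.37 ± 0.10 (SE), adjusted p = 0.035). Calls were lost in some alternatives for Anpep (without the irradiated libraries of mice 3 and 4, adjusted p 2.5e-10 to 0.26 over the alternatives), Hnf4g (without mouse 1, 2 or 3, 0.0021 to 0.13) and Prap1 (without mouse 1, 2 or 3 or in DESeq2, 8.1e-04 to 0.27).

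The enterocyte markers Alpi, Sis and Fabp2 had log2 fold changes of 1.13, 0.82 and 0.04 and did not pass (adjusted p = 0.24, 0.20 and 0.88). The summed level of the enterocyte list was 5894, 5199, 5017 and 5076 CPM and 5949.6, 5579.5, 5618 and 9105 CPM. The count of higher members was 7 without mouse 3, 4 without mouse 4, 4 without the 2 irradiated libraries of fewest UMIs and 7 in DESeq2, and the median was 0.21 without mouse 4. Also high in mouse 4 were Gsta1, a glutathione transferase (109.8, 68.8, 62.4 and 62.6 CPM and 151, 178, 174 and 515 CPM; log2 fold change 1.67 ± 0.37 (SE), adjusted p = 0.0064), and Cyp2c29, a cytochrome P450 (32.0, 19.4, 20.6 and 21.96 CPM and 44.4, 54.4, 36.7 and 163 CPM; log2 fold change 1.53 ± 0.34 (SE), adjusted p = 0.0070). Gsta1 did not pass without mouse 4 or in DESeq2, with an adjusted p of 1.0e-50 to 0.12 over the alternatives. Cyp2c29 did not pass without mouse 4 or in DESeq2, with an adjusted p of 2.5e-16 to 0.18 over the alternatives.

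Of the tested genes of the fetal-like, regenerative epithelium 56.25% were called higher, beside 2.87% of all genes tested. Areg, the EGF family ligand amphiregulin (chr5:91139599-91148432, plus strand), had 65.9, 54.4, 45.8 and 55.9 CPM without irradiation and 122, 134, 118 and 177 CPM after it (log2 fold change 1.29 ± 0.16 (SE), adjusted p = 1.6e-05). Anxa3, an annexin, had 79.0, 58.2, 54.4 and 53.2 CPM and 117, 114, 118 and 139.7 CPM (log2 fold change 0.99 ± 0.12 (SE), adjusted p = 1.5e-05). The calcium-binding protein gene S100a6 had 253, 187, 189 and 178 CPM and 321, 285, 349 and 335 CPM (log2 fold change 0.67 ± 0.09 (SE), adjusted p = 4.4e-05). In none of the 3 did the groups overlap, and the irradiated values of mice 1 to 3 lay close together. Plaur, the urokinase receptor, had 15.1, 11.9, 14.9 and 14.6 CPM and 33.1, 36.3, 29.9 and 41.0 CPM (log2 fold change 1.35 ± 0.24 (SE), adjusted p = 9.5e-04).

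Of 32 tested fetal-like members, of 50 in the table, 18 were higher and 0 lower, with a median of 0.62, and 14 did not pass. For 16 of the 18 the groups did not overlap, against 73.8% of all higher genes, and 17 rose in 4 of 4 mice. Named after their values were seen were Ly6a, the surface protein Sca-1 that marks fetal-like epithelium (13.8, 8.14, 11.4 and 11.3 CPM and 35.5, 31.3, 14.5 and 30.7 CPM; log2 fold change 1.34 ± 0.25 (SE), adjusted p = 0.0016), and Clu, the clusterin gene that marks revival stem cells (51.4, 28.2, 43.5 and 31.9 CPM and 69.8, 115, 55.1 and 92.2 CPM; log2 fold change 1.104 ± 0.21 (SE), adjusted p = 0.0018). The count was 11 without mouse 4 and 10 without the 2 irradiated libraries of fewest UMIs, where the median was 0.55. Of 34 tested genes of the actin cytoskeleton and the YAP pathway, 5 were higher and 0 lower (median 0.21). They included Vim, the intermediate filament vimentin, with 21.3, 16.3, 19.5 and 20.6 CPM and 29.6, 73.1, 60.9 and 33.5 CPM (log2 fold change 1.31 ± 0.21 (SE), adjusted p = 2.9e-04). Fjx1, a secreted YAP target, had 0.627, 2.50, 2.86 and 2.66 CPM and 10.1, 8.79, 11.6 and 11.2 CPM (log2 fold change 2.22 ± 0.42 (SE), adjusted p = 0.0017), and Itgb4, the hemidesmosome integrin, was higher too (log2 fold change 0.82 ± 0.18 (SE), adjusted p = 0.0071). The actin count was 10 without mouse 1, 2 without mouse 2 and 3 without mouse 4. Itgb4 did not pass without mouse 2 or 4, with an adjusted p of 0.0032 to 0.13 over the alternatives.

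The smallest adjusted p of all genes tested was that of a junction gene. Cldn4, a tight junction claudin (chr5:134945119-134946934, minus strand), had 104, 88.9, 98.4 and 92.5 CPM without irradiation and 186, 212, 330.4 and 277 CPM after it (log2 fold change 1.36 ± 0.11 (SE), adjusted p = 3.5e-08). The lowest irradiated sample lay well above the highest unirradiated one. Of 27 tested members 4 were higher and 1 lower (median 0.23). Besides Cldn4 these were Krt18, a keratin of simple epithelia (log2 fold change 0.34 ± 0.06 (SE), adjusted p = 6.1e-04), F11r, the junctional adhesion molecule A (log2 fold change 0.47 ± 0.09 (SE), adjusted p = 0.0019), and Krt8, the partner of Krt18 (log2 fold change 0.30, adjusted p = 0.0096). Cldn15, a cation-conducting claudin of the small intestine, was lower (log2 fold change -0.42 ± 0.09 (SE), adjusted p = 0.0042). Ahnak, a large scaffold protein beneath the membrane and in none of these lists, had 20.1, 8.14, 8.01 and 13.3 CPM and 34.3, 30.2, 25.1 and 42.8 CPM (log2 fold change 1.43 ± 0.22 (SE), adjusted p = 2.2e-04). F11r did not pass without mouse 4, with an adjusted p of 3.3e-04 to 0.12 over the alternatives. Cldn15 did not pass without mouse 2 or 4, with an adjusted p of 7.0e-04 to 0.092 over the alternatives.

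**Figure D4:**
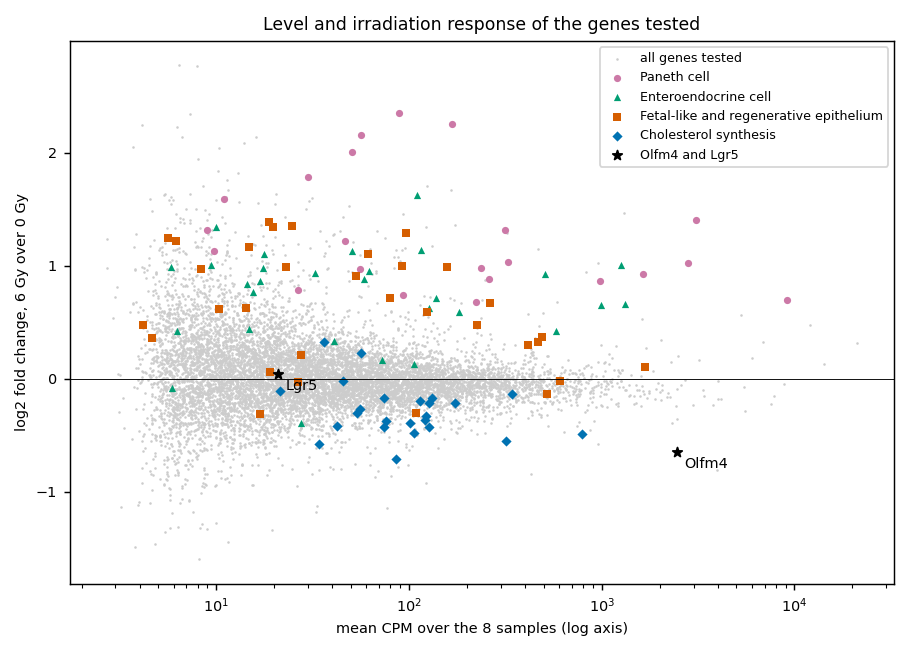
Log2 fold change, 6 Gy over 0 Gy (vertical axis), against the mean level over the 8 samples (horizontal axis, CPM, logarithmic) of each of the 9976 genes tested (grey), with 4 gene lists and the stem cell genes Olfm4 and Lgr5 marked. Paneth genes rose across the range of levels, Olfm4 was among the most abundant genes that fell, and genes at low levels scatter more widely.

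Of the tested S phase genes 1.43% were called higher, and of the G2/M genes 1.08% higher and 3.23% lower, beside 2.87% and 1.59% of all genes tested. Mki67, the proliferation marker Ki-67, had 129.8, 119, 100.1 and 108 CPM without irradiation and 111, 149, 86.0 and 79.2 CPM after it (log2 fold change -0.10 ± 0.13 (SE), adjusted p = 0.76). Of 70 tested genes of S phase and replication 1 was higher and 0 lower (median -0.03), and of 93 of G2/M and mitosis 1 was higher and 3 lower (median -0.04). The S phase gene was Rrm2, a subunit of ribonucleotide reductase, with 208, 235, 248 and 228 CPM and 286, 280.2, 259.9 and 301 CPM (log2 fold change 0.30 ± 0.07 (SE), adjusted p = 0.014). In the mitotic list Ckap2, a spindle protein, was higher (log2 fold change 0.55 ± 0.15 (SE), adjusted p = 0.035). Spc24, a kinetochore subunit (log2 fold change -0.37 ± 0.08 (SE), adjusted p = 0.0089), Cdca2, a phosphatase regulator (log2 fold change -0.43 ± 0.12 (SE), adjusted p = 0.040), and H2ax, the histone variant phosphorylated at DNA breaks (log2 fold change -0.29 ± 0.08 (SE), adjusted p = 0.042), were lower. Of 15 tested inhibitors of cyclin-dependent kinases and quiescence genes other than those of the p53 list, 1 was higher, the antiproliferative gene Tob1 (log2 fold change 0.52 ± 0.12 (SE), adjusted p = 0.0093), and 0 lower, with a median of 0.13. Not passing with some samples left out or in DESeq2 were Rrm2 (without mouse 1, 2 or 4, adjusted p 0.0043 to 0.17 over the alternatives), Ckap2 (without mouse 2, 3 or 4 or in DESeq2, 0.0012 to 0.42) and Spc24 (without mouse 3 or 4, 0.0029 to 0.35). This was also so for Cdca2 (without mouse 1, 2, 3 or 4 or in DESeq2, 0.039 to 0.20), H2ax (without mouse 2, 3 or 4 or in DESeq2, 0.0018 to 0.69) and Tob1 (without mouse 2 or 3, 0.0042 to 0.13).

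Lists of damage and death held at most 1 call each besides the p53 list, where 2.87% of all genes tested were called higher and 1.59% lower. None of 46 tested genes of DNA damage signalling and repair was called by either tool, with 7 at an unadjusted p under 0.05 (median -0.06). The most abundant were the base excision enzyme Apex1 (-0.12, adjusted p = 0.42) and Parp2 (-0.14, adjusted p = 0.51). Of 30 tested genes of the apoptosis machinery 1 was higher, the pore-forming gasdermin Gsdmd (log2 fold change 0.66 ± 0.19 (SE), adjusted p = 0.049), and 0 lower (median 0.10). Of 7 tested genes of the senescence-associated secretory list 1 was higher, the TWEAK receptor Tnfrsf12a (log2 fold change 0.38 ± 0.10 (SE), adjusted p = 0.023), and 0 lower, with a median of -0.11. Gsdmd did not pass without mouse 2, 3 or 4 or in DESeq2, with an adjusted p of 0.012 to 0.44 over the alternatives. Tnfrsf12a did not pass without mouse 2, 3 or 4 or in DESeq2, with an adjusted p of 0.0079 to 0.22 over the alternatives.

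Signalling and inflammatory lists held at most 2 calls in each direction, where 2.87% of all genes tested were called higher and 1.59% lower. None of 18 tested genes of the list of EGF family and feedback, which leaves out Areg of the fetal-like list, was called by either tool and 4 had an unadjusted p under 0.05 (median 0.29). The most abundant members were the feedback inhibitor Errfi1 (0.10, adjusted p = 0.76) and the target Etv4 (0.39, adjusted p = 0.081). Of 20 tested immediate early genes 2 were higher and 1 lower (median -0.09): the AP-1 subunits Junb (log2 fold change 0.35 ± 0.09 (SE), adjusted p = 0.015) and Fosl1 (log2 fold change 1.098 ± 0.29 (SE), adjusted p = 0.030) were higher and Jun (log2 fold change -0.30 ± 0.07 (SE), adjusted p = 0.012) lower. Of 16 tested NF-kB targets and chemokines 2 were higher and 0 lower (median 0.0039). They were the adhesion molecule Icam1, with 12.5, 10.6, 9.73 and 15.3 CPM and 17.7, 37.9, 32.8 and 25.1 CPM (log2 fold change 1.26 ± 0.25 (SE), adjusted p = 0.0022), and the chemokine Cxcl16, with 9.41, 16.3, 11.4 and 11.98 CPM and 24.3, 23.6, 24.2 and 36.3 CPM (log2 fold change 1.103 ± 0.23 (SE), adjusted p = 0.0038). Calls were lost in some alternatives for Junb (without mouse 3 or 4, adjusted p 0.0038 to 0.15 over the alternatives), Fosl1 (without mouse 2 or 4 or in DESeq2, 0.0019 to 0.38) and Jun (without mouse 2, 3 or 4, 0.0022 to 0.27). This was also so for Icam1 (without mouse 3, 6.4e-06 to 0.051) and Cxcl16 (without mouse 4, 1.9e-04 to 0.11).

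Interferon-stimulated genes had 1 higher and 1 lower call among 18 tested (median 0.23), Ly6e (log2 fold change 0.54 ± 0.11 (SE), adjusted p = 0.0027) and Lgals9 (log2 fold change -0.34 ± 0.07 (SE), adjusted p = 0.0041). Of 20 tested genes of MHC class I presentation 0 were higher and 2 lower (median -0.09). These were H2-Q10, a class I gene (log2 fold change -0.47 ± 0.12 (SE), adjusted p = 0.016), which has near-identical relatives, and Psme2, a proteasome activator (log2 fold change -0.55 ± 0.15 (SE), adjusted p = 0.032). Not passing with some samples left out or in DESeq2 were Lgals9 (without mouse 2 or 4, adjusted p 2.3e-04 to 0.17 over the alternatives), H2-Q10 (without mouse 2, 3 or 4 or in DESeq2, 0.0081 to 0.12) and Psme2 (without mouse 2, 3 or 4, 1.6e-04 to 0.32).

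Cholesterol synthesis genes had the lowest median of the lists in the plot. Cells make cholesterol from acetyl-CoA through mevalonate and squalene, and the transcription factor SREBP2 drives the genes of the whole pathway when sterols are low. Insig1, a sterol-responsive protein that holds SREBP in the endoplasmic reticulum (chr5:28071363-28078662, plus strand), had 76.5, 116, 105 and 129 CPM without irradiation and 68.0, 63.2, 65.7 and 62.4 CPM after it. Its groups did not overlap, and the irradiated samples of the 4 mice lay close together (log2 fold change -0.71 ± 0.13 (SE), adjusted p = 0.0012). Acat2, which joins acetyl-CoA units in the first step, had 305, 412, 395 and 401 CPM and 269, 244, 259 and 265 CPM (log2 fold change -0.55 ± 0.09 (SE), adjusted p = 2.2e-04). Nsdhl, which takes part in removing methyl groups from the sterol ring, had 105, 126, 125 and 138 CPM and 94.7, 87.4, 73.4 and 97.8 CPM (log2 fold change -0.48 ± 0.10 (SE), adjusted p = 0.0041). Nsdhl did not pass without mouse 3, with an adjusted p of 6.9e-04 to 0.092 over the alternatives.

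Of 24 tested genes of cholesterol synthesis, of 25 in the table, 0 were higher and 9 lower, 22 had a log2 fold change below 0, and the median was -0.31. The other lower members, named after their values were seen, were the enzymes Mvk (-0.39), Pmvk (-0.36), Fdps (-0.49), Sqle (-0.43), Lss (-0.58) and Tm7sf2 (-0.43), all in log2. Neither of the 2 members above 0 passed. Srebf2, the gene for SREBP2, had a log2 fold change of -0.02 (adjusted p = 0.98). The summed level of the list was 3164, 3851, 3643 and 3839 CPM and 2858, 2683, 2989 and 2894 CPM. Every irradiated sum was below every unirradiated one. The count was 4 without mouse 2, 2 without mouse 3, 3 without mouse 4, 2 without the 2 irradiated libraries of fewest UMIs and 3 in DESeq2, while the median remained between -0.27 and -0.35 in these settings.

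**Figure D5:**
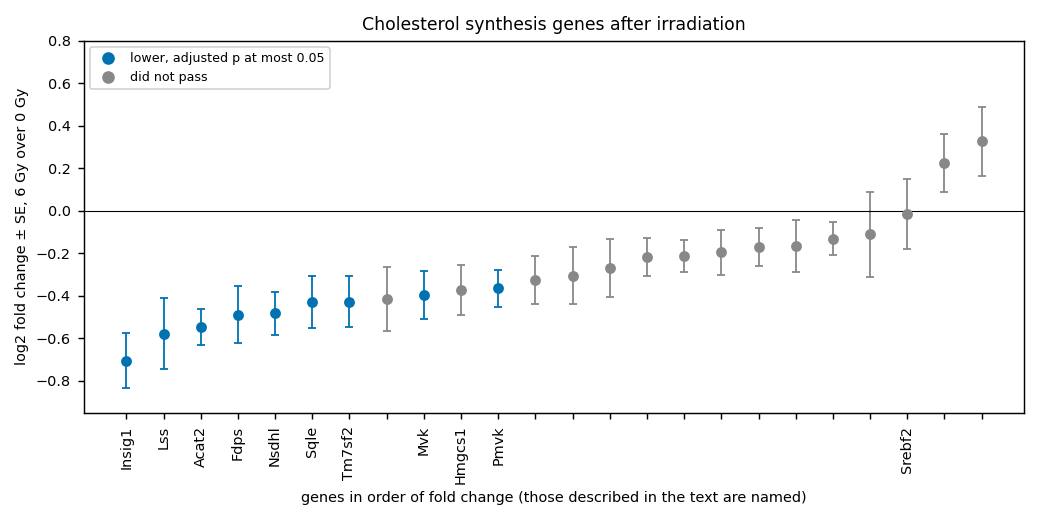
Log2 fold change ± SE, 6 Gy over 0 Gy (vertical axis), of 24 genes of cholesterol synthesis and its regulation, in order of fold change (horizontal axis, with the genes described in the text named); blue points passed as lower and grey points did not pass. Of the 24 points 22 lie below 0, from Insig1 with -0.71 to Srebf2 with -0.02, and 2 grey points lie above it.

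Promoter sequences of the pathway are shown because 9 of its 24 tested genes were lower. The RefSeq sequences before the annotated start of the gene were searched on both strands for the letters of the CCAAT box (CCAAT, or ATTGG on the other strand), which the factor NF-Y binds, and of a sterol regulatory element core (TCACNCCAC); the 2 motifs share letters but were counted separately. A RefSeq promoter was matched for 16 of the 24 tested genes. A gene was counted if any of its promoters held the motif, whereas the share of all promoters counts each promoter singly. In the 250 bases before the start, CCAAT was found in 15 of the 16 (93.75%) and in 6 of the 7 matched genes that were lower (85.71%), as against 41.26% of 7705 matched tested genes and 33.86% of all 32841 promoters. The matched gene without CCAAT was Acat2, which was lower, and every matched gene that did not pass held it. The sterol element core was found in 1 of the 16 (6.25%), Hmgcs1, which did not pass (log2 fold change -0.37 ± 0.12 (SE), adjusted p = 0.076), in 0 of the 7 lower ones, in 1.233% of tested genes and in 1.054% of all promoters. The stretches without annotated exons of Mvk (chr5:114444061-114444268, plus strand) and Nsdhl (chrX:72918412-72918520, plus strand), which were lower, and of Hmgcs1 (chr13:119690101-119690350, plus strand) are given 5′ to 3′ on GRCm38, with both motifs in capitals.
Mvk: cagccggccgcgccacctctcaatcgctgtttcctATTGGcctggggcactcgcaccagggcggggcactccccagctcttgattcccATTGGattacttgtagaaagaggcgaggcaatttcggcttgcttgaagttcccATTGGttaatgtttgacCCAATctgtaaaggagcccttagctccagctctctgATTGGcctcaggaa
Nsdhl: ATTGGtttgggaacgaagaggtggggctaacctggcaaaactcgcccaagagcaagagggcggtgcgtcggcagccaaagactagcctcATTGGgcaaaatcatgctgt
Hmgcs1: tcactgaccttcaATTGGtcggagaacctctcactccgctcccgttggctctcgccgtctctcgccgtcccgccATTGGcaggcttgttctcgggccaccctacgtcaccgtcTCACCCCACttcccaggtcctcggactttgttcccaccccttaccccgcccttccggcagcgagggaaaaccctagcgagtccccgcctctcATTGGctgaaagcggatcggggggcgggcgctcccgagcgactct
The Mvk stretch of 208 bases holds 5 CCAAT matches, the most of any matched gene of the list. The Nsdhl stretch of 109 bases holds 2, and the Hmgcs1 stretch holds 3 with 1 sterol element core. These matches describe the letters of the sequences and were not tested for binding.

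Fatty acid genes were called in both directions, 3.33% higher and 16.7% lower, beside 2.87% and 1.59% of all genes tested. Of 30 tested genes of fatty acid synthesis and oxidation 1 was higher and 5 lower, with a median of -0.18. Acsl5, which activates long-chain fatty acids, had 95.3, 95.1, 119 and 98.5 CPM and 128, 154, 148 and 165 CPM and was higher (log2 fold change 0.54 ± 0.09 (SE), adjusted p = 5.9e-04). Hadh, a dehydrogenase of beta-oxidation, had 341, 382, 356 and 398 CPM and 284, 259, 288 and 278 CPM (log2 fold change -0.41 ± 0.07 (SE), adjusted p = 6.1e-04). The desaturases Fads1 (log2 fold change -0.56 ± 0.11 (SE), adjusted p = 0.0021) and Fads2 (log2 fold change -0.47 ± 0.11 (SE), adjusted p = 0.0078) were lower as well. The lower count was 2 without mouse 4 and 3 without the 2 irradiated libraries of fewest UMIs. Fads1 did not pass without the irradiated libraries of mice 3 and 4, with an adjusted p of 3.6e-04 to 0.076 over the alternatives. Fads2 did not pass without mouse 4, with an adjusted p of 2.9e-05 to 0.15 over the alternatives.

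Several other metabolic and ion-handling genes changed. Of 14 tested metallothioneins and zinc transporters 2 were higher and 2 lower (median 0.12). That was 14.3% each way, where 2.87% of all genes tested were called higher and 1.59% lower. Mt2, a metal-binding metallothionein (chr8:94172664-94173568, plus strand), had 1343, 1160.3, 1119.8 and 968 CPM without irradiation and 841, 769.8, 811 and 654 CPM after it, with no overlap (log2 fold change -0.58 ± 0.08 (SE), adjusted p = 2.3e-05). The zinc importer Slc39a5 was also lower, with 79.0, 98.3, 73.8 and 93.8 CPM and 58.6, 42.9, 48.3 and 39.1 CPM (log2 fold change -0.87 ± 0.13 (SE), adjusted p = 1.6e-04), while Slc39a10 (log2 fold change 1.55 ± 0.37 (SE), adjusted p = 0.012) and Slc39a4 (log2 fold change 0.39 ± 0.11 (SE), adjusted p = 0.032) were higher. Of 17 tested genes of polyamine and arginine metabolism 1 was higher and 2 lower (median -0.18). Sat1, which breaks down polyamines, had 101, 92.6, 105 and 89.2 CPM and 141, 167, 162 and 172 CPM (log2 fold change 0.72 ± 0.09 (SE), adjusted p = 2.2e-05), the urea cycle enzyme Otc had 166, 173, 166 and 176 CPM and 121, 119.8, 106 and 98.7 CPM (log2 fold change -0.61 ± 0.10 (SE), adjusted p = 2.2e-04), and Oat, ornithine aminotransferase, was lower (log2 fold change -0.28 ± 0.06 (SE), adjusted p = 0.010). Calls were lost in some alternatives for Slc39a10 (without mouse 2, 3 or 4 or in DESeq2, adjusted p 0.0051 to 0.17 over the alternatives), Slc39a4 (without mouse 2, 3 or 4 or in DESeq2, 0.020 to 0.17) and Oat (without mouse 2, 3 or 4, 0.0019 to 0.15).

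The largest fall among the genes that met the level criterion was in Selenbp1, the selenium-binding protein 1 (chr3:94933056-94944758, plus strand), with 53.3, 38.8, 44.1 and 43.9 CPM without irradiation and 23.1, 12.6, 22.2 and 26.1 CPM after it (log2 fold change -1.18 ± 0.21 (SE), adjusted p = 0.0011). Aoc1, which oxidizes diamines such as histamine and putrescine, had 138, 181, 125 and 200.3 CPM and 106, 82.4, 69.6 and 82.0 CPM (log2 fold change -0.92 ± 0.14 (SE), adjusted p = 1.6e-04). Slc26a3, the chloride and bicarbonate exchanger, had 34.5, 41.3, 33.2 and 29.3 CPM and 17.7, 19.8, 13.5 and 21.4 CPM (log2 fold change -0.95 ± 0.19 (SE), adjusted p = 0.0030). In these 3 genes every irradiated sample lay below every unirradiated one. The Wnt regulator gene Frat2 (log2 fold change -0.82 ± 0.12 (SE), adjusted p = 7.4e-05), the lectin receptor gene Cd302 (log2 fold change -0.80 ± 0.13 (SE), adjusted p = 3.4e-04) and the coenzyme Q gene Coq8a (log2 fold change -0.86 ± 0.16 (SE), adjusted p = 0.0019) fell too. The same holds for 9130208D14Rik (log2 fold change -1.12 ± 0.22 (SE), adjusted p = 0.0026), Tubb2b, a tubulin (log2 fold change -0.84 ± 0.19 (SE), adjusted p = 0.0077), Cd177 (log2 fold change -0.81 ± 0.18 (SE), adjusted p = 0.0089) and Pipox, a peroxisomal oxidase (log2 fold change -0.80 ± 0.21 (SE), adjusted p = 0.024). Not passing with some samples left out or in DESeq2 were Coq8a (without mouse 2, adjusted p 1.3e-09 to 0.051 over the alternatives), 9130208D14Rik (without mouse 3, 8.0e-08 to 0.095) and Tubb2b (without mouse 2 or 4, 2.1e-04 to 0.18). This was also so for Cd177 (without mouse 4, 3.3e-04 to 0.10) and Pipox (without mouse 2, 3 or 4 or in DESeq2, 0.0040 to 0.28).

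Genes of the ribosome and nuclear genes of respiration lay mostly slightly below 0. Among all 9976 genes tested, 5055 had a log2 fold change below 0 and 1.59% were called lower. Of 78 tested cytosolic ribosomal protein genes 0 were higher and 6 lower, 61 had a log2 fold change below 0, and the median was -0.15. Those with the smallest p were Rps18 (log2 fold change -0.35 ± 0.08 (SE), adjusted p = 0.0086), Rpl3 (log2 fold change -0.38 ± 0.09 (SE), adjusted p = 0.014) and Rpl22l1 (log2 fold change -0.32 ± 0.08 (SE), adjusted p = 0.015). The count was 16 without mouse 1, 0 without mouse 3, 0 without mouse 4 and 18 without the unirradiated library of mouse 1, so it depended on single libraries. Of 76 tested nuclear genes of the respiratory chain 0 were higher and 3 lower and 72 lay below 0, with a median of -0.09. The lower ones included Ndufb11 (log2 fold change -0.29 ± 0.07 (SE), adjusted p = 0.011) and Cox8a (log2 fold change -0.21 ± 0.06 (SE), adjusted p = 0.049). None of 8 tested mitochondrially encoded genes was called by either tool and 2 had an unadjusted p under 0.05 (median 0.09). Their log2 fold changes included mt-Cytb with 0.13 (adjusted p = 0.33) and mt-Nd1 with -0.15 (adjusted p = 0.18). Calls were lost in some alternatives for Rps18 (without mouse 3 or 4, adjusted p 9.9e-09 to 0.19 over the alternatives), Rpl3 (without mouse 2, 3 or 4, 1.5e-06 to 0.15) and Rpl22l1 (without mouse 3 or 4, 7.7e-04 to 0.36). This was also so for Ndufb11 (without mouse 2, 3 or 4, 0.0018 to 0.28) and Cox8a (without mouse 2, 3 or 4, 0.0077 to 0.39).

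Growth and stress genes were examined next, where 2.87% of all genes tested were called higher and 1.59% lower. Neither tool called any of 66 tested Myc and ribosome biogenesis genes, 6 of which had an unadjusted p under 0.05 (median 0.03), with Eif5a at 0.07 (adjusted p = 0.71) and Ldha at -0.06 (adjusted p = 0.78). The same held for 32 tested genes of ER protein folding, 7 of them under that p (median 0.05), with the chaperone Hspa5 at 0.16 (adjusted p = 0.22) and Ssr2 at 0.05 (adjusted p = 0.74). It also held for 16 tested heat shock genes, 2 of them under that p (median 0.03), with Hspa8 at -0.07 (adjusted p = 0.69) and Hsp90ab1 at 0.08 (adjusted p = 0.70). Of 17 tested snoRNA host and growth-arrest transcripts 2 were higher and 1 lower (median -0.10). These were the nuclear RNAs Malat1 (log2 fold change 0.32 ± 0.08 (SE), adjusted p = 0.025) and Neat1 (log2 fold change 0.56 ± 0.16 (SE), adjusted p = 0.041), and Gas5 (log2 fold change -0.25 ± 0.07 (SE), adjusted p = 0.032). Not passing with some samples left out or in DESeq2 were Malat1 (without mouse 2, 3 or 4, adjusted p 4.5e-07 to 0.52 over the alternatives), Neat1 (without mouse 2, 3 or 4 or in DESeq2, 0.0017 to 0.74) and Gas5 (without mouse 2, 3 or 4, 0.0038 to 0.34).

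Of 41 tested NRF2 and glutathione genes 2 were higher and 2 lower (median 0.04). That was 4.88% each way, beside 2.87% and 1.59% of all genes tested. Gsta4, which detoxifies lipid peroxides (log2 fold change 0.39 ± 0.08 (SE), adjusted p = 0.0048), and Gss, glutathione synthetase (log2 fold change 0.27 ± 0.07 (SE), adjusted p = 0.036), were higher, and Cat, catalase (log2 fold change -0.46 ± 0.12 (SE), adjusted p = 0.027), and Mgst3 (log2 fold change -0.23 ± 0.07 (SE), adjusted p = 0.045) were lower. Of 26 tested genes of glycolysis and hypoxia 2 were higher and 0 lower (median -0.06). They were Plod2, a collagen lysyl hydroxylase, with 2.51, 3.13, 1.14 and 2.66 CPM and 5.92, 10.4, 16.4 and 11.2 CPM (log2 fold change 2.14 ± 0.41 (SE), adjusted p = 0.0017), and the hexokinase Hk2 (log2 fold change 0.59 ± 0.14 (SE), adjusted p = 0.015). Calls were lost in some alternatives for Gsta4 (without mouse 4, adjusted p 0.0013 to 0.11 over the alternatives), Gss (without mouse 3 or 4 or in DESeq2, 0.016 to 0.40) and Cat (without mouse 1, 2 or 4 or in DESeq2, 0.0015 to 0.24). This was also so for Mgst3 (without mouse 2, 3 or 4 or in DESeq2, 0.0018 to 0.51), Plod2 (without the irradiated libraries of mice 3 and 4, 6.2e-06 to 0.10) and Hk2 (without mouse 3, 0.0039 to 0.23).

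The response was then set beside that of the VIP-treated cells, whose irradiated and unirradiated samples came from the same 4 mice. A difference in response was called for 0 of 9976 genes by edgeR's interaction test and for 0 by DESeq2, with 634 and 266 genes at an unadjusted p under 0.05. The smallest adjusted p, 0.51, belonged to Pfkl, a phosphofructokinase, with log2 fold changes of -0.17 without and -1.16 with VIP. Cdkn1a had 1.15 without and 1.75 with VIP (adjusted p of the interaction = 0.54). The other genes with the smallest p in each direction were Plgrkt (-0.41 and 0.17), Derl1 (0.34 and -0.31), Gm4739 (-0.19 and -1.02) and Gm10801 (-0.88 and 1.23), which did not pass either. Without a filter on low counts the interaction test called 34 genes. A count of 0 at this number of mice does not show that the responses were alike.

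The median log2 fold changes of the lists without and with VIP were 1.08 and 0.91 for Paneth, 0.84 and 1.01 for enteroendocrine and 0.19 and 0.30 for goblet genes. They were 0.62 and 0.60 for fetal-like, 0.46 and 0.28 for enterocyte and -0.31 and -0.46 for cholesterol genes. For stem cell genes they were -0.03 and -0.22. These medians lay on the same side of 0 with and without VIP. Those of secretory transcription factors (-0.06 and 0.03), immediate early genes (-0.09 and 0.09) and snoRNA host transcripts (-0.10 and 0.19) did not. None of these differences was tested.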

How the data were processed

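The authors prepared 3′ libraries with sample barcodes and UMIs from sorted cells and counted UMIs with the Drop-seq pipeline on GRCm38 with a GENCODE annotation. The deposited values are raw counts of UMIs per gene and sample, without normalization, in a table of 27547 genes, and 0 columns lacked a sample. Of these genes, 17571 were too low to be tested (filterByExpr by group), 3088 of them without a UMI in the 8 samples. The model was fitted with edgeR 4.0.16 in R 4.3.3 (TMM, quasi-likelihood test, Benjamini-Hochberg, threshold 0.05) over the 16 samples of the experiment, which share 1 estimate of the spread, with terms for group and mouse. SE is the fold change over the root of F. Library values were compared with exact sign-flip permutation tests.

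Samples of the 2 groups were paired because the labels give the same mouse, and the mouse is a block in the model. Across genes, the deviations of an irradiated and an unirradiated sample from their group means correlated at 0.014 to 0.070 within a mouse and at -0.071 to 0.031 between mice.

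The 41 gene lists, with 1619 entries, and the comparison were chosen with earlier results of these data known. A few list symbols were respelled as in the table, or dropped as older names, once it had been opened. Named were the 12 largest rises and falls in 4 of 4 mice at a mean of at least 20 CPM outside the p53 list, up to 3 called members per list and direction by smallest p (or the 2 most abundant where none passed), Lgr5, Olfm4, Ascl2, Smoc2, Axin2, Mki67, Epcam, Cdkn1a and Mdm2, and up to 3 genes per direction of the interaction. Some of the markers fixed beforehand for each cell type were also named. Others are not reported here, among them the goblet markers Clca1, Fcgbp, Tff3 and Spink4, so the markers shown are a part of those fixed. Other genes are given as named after their values were seen. A few genes that this rule names are not reported here. Alternatives were DESeq2 1.42.0, RLE or plain library sizes, no filter or at least 10 counts in every sample, no block, the 8 samples alone, no mitochondrial genes, thinning to the smallest library and each mouse left out. Leaving out the 2 irradiated libraries of fewest UMIs, or the unirradiated library of mouse 1, was added after seeing the data. The scripts were tested on simulated data. Depths per library are given with the results, and counting error adds to the spread of low genes. Gene positions are those of GENCODE on GRCm38 and promoters those of RefSeq on GRCm38.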

Additional observations from a re-analysis of the deposited data

Results flagged for a closer look

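Of 340 groups of 4 values, 25 held a sample whose gap to the others relative to the range exceeded Dixon's 95% critical value. Chance gives about 1 in 20. The unirradiated sample of mouse 1 stood apart in 9 of the named genes, with 110 CPM of Gsta1 (others 62.4 to 68.8), 253 of S100a6 (178 to 189), 65.2 of Psme2 (116 to 122), 28.9 of Gsdmd (17.97 to 18.9), 1491 of Eif5a (1906 to 1913), 652 of Rpl3 (921 to 971), 699 of Mgst3 (837 to 838), 305 of Acat2 (395 to 412) and 0.627 of Fjx1 (2.50 to 2.86).

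The irradiated sample of mouse 4 stood apart in enterocyte genes, with 515 CPM of Gsta1 (151 to 178), 163 of Cyp2c29 (36.7 to 54.4) and 103 of Anpep (21.98 to 28.02), and in the summed enterocyte list with 9105 CPM (5580 to 5949.6). It was also apart in Anxa3 with 140 CPM (114 to 118), Cxcl16 with 36.3 CPM (23.6 to 24.3) and the summed list of glycolysis and hypoxia with 2375 CPM (2249 to 2261).

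The irradiated sample of mouse 3 was apart in regulators of secretory cells, with 245 CPM of Hes6 (181 to 188), 335 of Xbp1 (246 to 258) and 189 of Foxa3 (154 to 155), and in the summed list of secretory transcription factors with 837 CPM (650.0 to 677). The remaining ones were the unirradiated samples of mouse 3 for Cyp3a11 with 10.9 CPM (15.6 to 16.3) and Acsl5 with 119 CPM (95.1 to 98.5), that of mouse 2 for Plaur with 11.9 CPM (14.6 to 15.1), and the irradiated samples of mouse 1 for Slc39a4 with 85.2 CPM (108 to 112) and of mouse 2 for the summed goblet list with 8424 CPM (11651 to 11936).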

How the results depend on the processing

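The direction of the 10 list medians that were recomputed held in these settings except for stem cell genes, but the number of calls depended on the tool and above all on the mice. DESeq2 gave 188 higher and 93 lower genes, with 8 enteroendocrine, 7 enterocyte and 3 cholesterol members, and 279 of its 281 calls were shared with edgeR. Without a filter on low counts there were 22 enterocyte and 22 ribosomal protein members and 34 interaction calls. With at least 10 counts in every sample there were 4 cholesterol members and the stem cell median was 0.015. Without the replicate block, which ignores the pairing by mouse, there were 5 enteroendocrine, 5 cholesterol and 3 fatty acid members, and 213 higher and 109 lower genes. The 8 samples alone gave 3 ribosomal members and thinned libraries 3 stem cell members. Without the 2 irradiated libraries of fewest UMIs there were 125 higher and 43 lower genes, with 10 Paneth, 3 goblet, 6 enteroendocrine, 4 enterocyte, 10 fetal-like, 2 stem cell, 0 ribosomal, 2 cholesterol, 3 fatty acid and 3 actin members. Without the unirradiated library of mouse 1 there were 246 lower genes, 18 ribosomal and 9 actin members, and the stem cell median was 0.021. Leaving out 1 mouse at a time gave 134 to 409 higher, 42 to 234 lower and 0 to 1 interaction calls. Members ranged over 12 to 20 Paneth, 7 to 16 enteroendocrine, 3 to 8 goblet, 4 to 18 enterocyte, 11 to 18 fetal-like, 3 to 5 stem cell, 0 to 16 ribosomal, 2 to 8 cholesterol, 2 to 5 fatty acid and 2 to 10 actin genes, with a stem cell median of -0.072 to 0.0077. Fewer samples were fitted in these settings, and the cause was not tested further.

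For the named genes, 1612 of the values under an alternative kept direction and call, 244 lost the call, 4 gained it and 16 changed sign, all 16 in genes that had not passed. Most losses given beside single genes name only left-out samples and DESeq2, and other settings lost calls too. The 8 samples alone lost those of Smoc2, Rrm2, Ckap2, Cdca2, H2ax, Fosl1, Gsdmd, Rpl22l1, Malat1, Neat1 and Gas5. Cox8a, Gss, Mgst3 and Pipox were lost there as well, and Gsdmd also with RLE. Some calls were lost without the block or with other filters. Leaving out 1 mouse at a time gave log2 fold changes of -0.067 to 0.16 for Axin2, -0.020 to 0.20 for Hsp90ab1, -0.096 to 0.051 for Smad2, -0.019 to 0.10 for Hes6, -0.13 to 0.28 for Lgr5 and -0.036 to 0.021 for Hes1. Axin2 had -0.0083 without a filter, and Mki67 0.014 without the unirradiated library of mouse 1. Without the 2 irradiated libraries of fewest UMIs the values were 0.045 for Hes1, -0.078 for Hes6, -0.0089 for Errfi1, -0.010 for mt-Cytb, -0.085 for Lgr5, 0.089 for Mki67 and 0.054 for Gm4739. Depth limits genes of a few CPM, where 1 UMI is a large step. Thinning to the smallest library lost the calls of Smoc2, Ckap2, Cdca2, H2ax, Fyb, Hnf4g, H2-Q10, Psme2, Gsdmd and Tnfrsf12a. Neat1, Gss, Cat, Hk2, Slc39a4, Tubb2b and Pipox were lost in that setting as well.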

Other observations

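The genes below were in none of the lists and were named after their values were seen. Lists held 105 of the higher genes outside the p53 list, and 148 higher and 113 lower genes were in no list. Since they were picked from the called genes, they give no count for any group. Higher was Ctsd, the protease cathepsin D, with 323, 334, 332 and 334 CPM without irradiation and 422, 474, 542 and 547 CPM after it (log2 fold change 0.58 ± 0.08 (SE), adjusted p = 2.5e-05). Of other lysosomal genes, Cd63, Lamp1, Ctsl, Ctsh, Tpp1 and Aga had log2 fold changes of 0.36, 0.26, 0.51, 0.34, 0.46 and 0.43. Npc2 and Gm2a, also lysosomal, were lower (-0.26 and -0.80). Also higher were Reg4, with 663, 616, 609 and 499 CPM and 867, 1241, 2317 and 837 CPM (log2 fold change 1.03 ± 0.15 (SE), adjusted p = 9.8e-05), and Fev, Scgn, Aplp1, Bex2 and Rbp4 with 0.92, 0.86, 1.02, 0.65 and 1.15.

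Lmna, the nuclear lamin A/C, had 142, 138, 142 and 154 CPM and 203, 231, 215 and 269 CPM (log2 fold change 0.67 ± 0.08 (SE), adjusted p = 1.6e-05), and Gsn, the actin-severing gelsolin, 45.8, 46.9, 47.5 and 41.3 CPM and 87.0, 70.3, 93.7 and 105 CPM (log2 fold change 0.95 ± 0.12 (SE), adjusted p = 2.3e-05). Both leukotriene B4 receptor genes were higher, Ltb4r1 with 1.57 and Ltb4r2 with 2.24, at levels of a few CPM. Lower were the intestinal transcription factors Klf5 (log2 fold change -0.42 ± 0.08 (SE), adjusted p = 0.0025) and Cdx1 (log2 fold change -0.42 ± 0.08 (SE), adjusted p = 0.0026). The enzyme genes that were lower included Acss2 (-0.76), Pdk2 (-0.78), Acat1 (-0.45), Acaa2 (-0.30), Pck2 (-0.63), Pccb (-0.56) and Nags (-0.66).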
